A study of Mus musculus with 27 samples.

Results

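Expression of 9 genes of arginine, tryptophan and glutamate metabolism was examined in monocytes, macrophages and type 1 conventional dendritic cells (cDC1s) from the inflamed colon of WT and Mbd2-/- mice. The genes were Indo (the array's older symbol for Ido1), Kynu, Kmo, Arg1, Arg2, Nos2, Ass1, Slc7a2 and Slc1a3. They were chosen by symbol, from 30869 symbols on the array, with the genotype differences of Ido1 in monocytes and macrophages, of Arg1 and Slc1a3 in macrophages and of Nos2 in monocytes already known. Member values in those genotype comparisons are therefore given as a description without a test, while the genotype comparison in cDC1s and the comparisons of cell types in WT were tested. The 9 genes had 15 of the 45281 probes, and all 9 had at least 1 probe that entered a comparison.

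Mice of both genotypes, littermates that were housed together, had received 2% dextran sulfate sodium (DSS), which damages the colonic epithelium, in drinking water for 6 days. Ly6C+ monocytes, Ly6C- F4/80+ MHC-II+ macrophages and CD11b- CD11c+ CD103+ cDC1s (labelled CD11bnegDC) were sorted from the lamina propria, and RNA was hybridised to Illumina MouseWG-6 BeadChips. There were 5 arrays per genotype for monocytes and for macrophages, and 2 WT and 3 Mbd2-/- (labelled Mbd2KO) arrays for cDC1s. A further 2 arrays, of splenic CD4 T cells from another colitis model, enter no comparison. Each array held RNA pooled from 1 to 5 mice by the labels, all cells of the Mbd2-/- mice lacked the gene, and strain, sex and age were not given in the labels used here.

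Ido1 opens the kynurenine pathway by oxidising tryptophan, Kmo hydroxylates kynurenine, and Kynu cleaves kynurenine and its hydroxylated form. Arginine enters cells through the cationic transporter encoded by Slc7a2, is split to ornithine and urea by the cytosolic arginase Arg1 or the mitochondrial arginase Arg2, or is turned into nitric oxide and citrulline by Nos2, and Ass1 begins the resynthesis of arginine from citrulline. Slc1a3 encodes a sodium-coupled transporter that takes up glutamate and aspartate. In myeloid cells Arg1 and Nos2 are widely used as markers of contrasting activation states, Ido1 and Nos2 are known targets of interferon-gamma, and Mbd2 encodes a protein that binds methylated CpG dinucleotides.

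RefSeq promoter sequence, build GRCm38.p6, was on hand for 3 of the 9 genes, Slc1a3, Ass1 and Kmo, as windows of 300 bases that run from 250 bases before the transcript start to 50 after it. Because Mbd2 reads methylated CpGs, the windows with the fewest and the most CpGs of these 3 are shown, those of Slc1a3 and Ass1. Capitals mark every CpG, and each sequence runs 5′ to 3′ on the gene's strand.
Slc1a3, chr15:8710758-8711057, minus strand: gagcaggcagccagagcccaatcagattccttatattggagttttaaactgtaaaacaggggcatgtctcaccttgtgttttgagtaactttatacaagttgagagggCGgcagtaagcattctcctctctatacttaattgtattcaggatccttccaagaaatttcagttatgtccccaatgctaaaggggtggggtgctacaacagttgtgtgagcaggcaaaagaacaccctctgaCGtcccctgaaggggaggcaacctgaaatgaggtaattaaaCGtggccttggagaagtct
Ass1, chr2:31470020-31470319, plus strand: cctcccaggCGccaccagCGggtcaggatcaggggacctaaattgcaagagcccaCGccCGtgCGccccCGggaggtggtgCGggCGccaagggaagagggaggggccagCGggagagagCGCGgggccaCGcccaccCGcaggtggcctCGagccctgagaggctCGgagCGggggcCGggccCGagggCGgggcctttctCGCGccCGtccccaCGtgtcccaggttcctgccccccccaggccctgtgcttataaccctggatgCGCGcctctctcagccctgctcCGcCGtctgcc

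The Slc1a3 window held 3 CpGs, and 31.4% of all 32851 promoter windows held as many or fewer. The Ass1 window held 27, and 15.5% of all windows held as many or more. The Kmo window (chr1:175631943-175632242, plus strand) held 7, which is also the median of all windows. On either strand, the letters TTCNNNGAA, the core of an interferon-gamma activated site, occurred once in the Slc1a3 window and in neither of the others, against 8.3% of all windows that held them. The letters GAAANNGAA, a core of interferon-stimulated response elements, were in none of the 3 windows, against 8.56% of all windows. DNA methylation and factor binding were not measured in these samples.

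Array quality and identity were checked first. Mean probe intensity per array ran from 172 to 353, and 16024 to 18608 probes per array had a detection p under 0.05 against negative controls, the limit used here to call a probe detected. The single Mbd2 probe was detected on 0 of the 25 colon arrays and so could not check the genotype labels. The summed background-subtracted intensity of 7 monocyte markers was 21785 to 38399 in monocytes and at most 9530 elsewhere, that of 8 macrophage markers was 35029 to 52786 in macrophages and at most 26072 elsewhere, and that of 7 cDC1 markers was 12898 to 34477 in cDC1s and at most 3183 elsewhere. Of 9 epithelial markers, 8 were detected on every array except 1 Mbd2-/- cDC1 array that showed all 9, although the sorting gates included CD45. Their intensities summed to 5813 to 20731 for WT against 5349 to 12460 for Mbd2-/- monocytes, to 6288 to 12551 against 5873 to 19080 for macrophages, and to 4249 to 18200 against 2618 to 8324 for cDC1s. The epithelial sums overlapped between genotypes in each cell type. After normalisation the means of all 9 markers were higher in Mbd2-/- than in WT macrophages, for example 11.22 against 10.15 for Car1 and 11.81 against 11.67 for Muc2. In monocytes and cDC1s the directions were mixed. The part of epithelial transcripts in the values that follow was not tested. The sums for other cells, over all colon arrays, were 402 to 5852 for 6 stromal, 149 to 3435 for 6 T cell, 61.6 to 1283 for 5 B and plasma cell, 65.6 to 1468 for 6 neutrophil and 18.7 to 165 for 4 eosinophil genes. Among these, B and plasma cell sums did not overlap between genotypes in monocytes (638 to 1194 in WT, 393 to 572 in Mbd2-/-), nor stromal sums in cDC1s (2381 to 5852 in WT, 402 to 1926 in Mbd2-/-), and their part in the genotype differences was not tested. The cDC1 marker sums did not overlap between genotypes either, at 27903 to 34477 in WT and 12898 to 23827 in Mbd2-/- cDC1s. The Mbd2-/- cDC1 arrays were also dimmer over all probes, with mean intensities of 172 to 228 against 265 to 292 in WT and 16383 to 16572 against 17443 to 17635 probes detected. After normalisation the cDC1 markers were close between genotypes by the brightest probe of each, for example at mean levels of 9.15 in WT and 8.94 in Mbd2-/- for Clec9a, 13.15 and 13.03 for Itgae and 9.20 and 9.31 for Batf3. The study itself reported Itgae mRNA as lower in Mbd2-/- cDC1s, which the brightest probe does not reflect here.

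Levels below are normalised log2 intensities of the brightest probe of a gene, so they can be compared between arrays for 1 gene but not between genes. In a sorted population, a lower level cannot be told apart as fewer expressing cells or as less RNA per cell. A call needed 1 probe of the gene with a log2 difference of 1 or more in either direction and an adjusted p below 0.05.

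**Figure D1:**
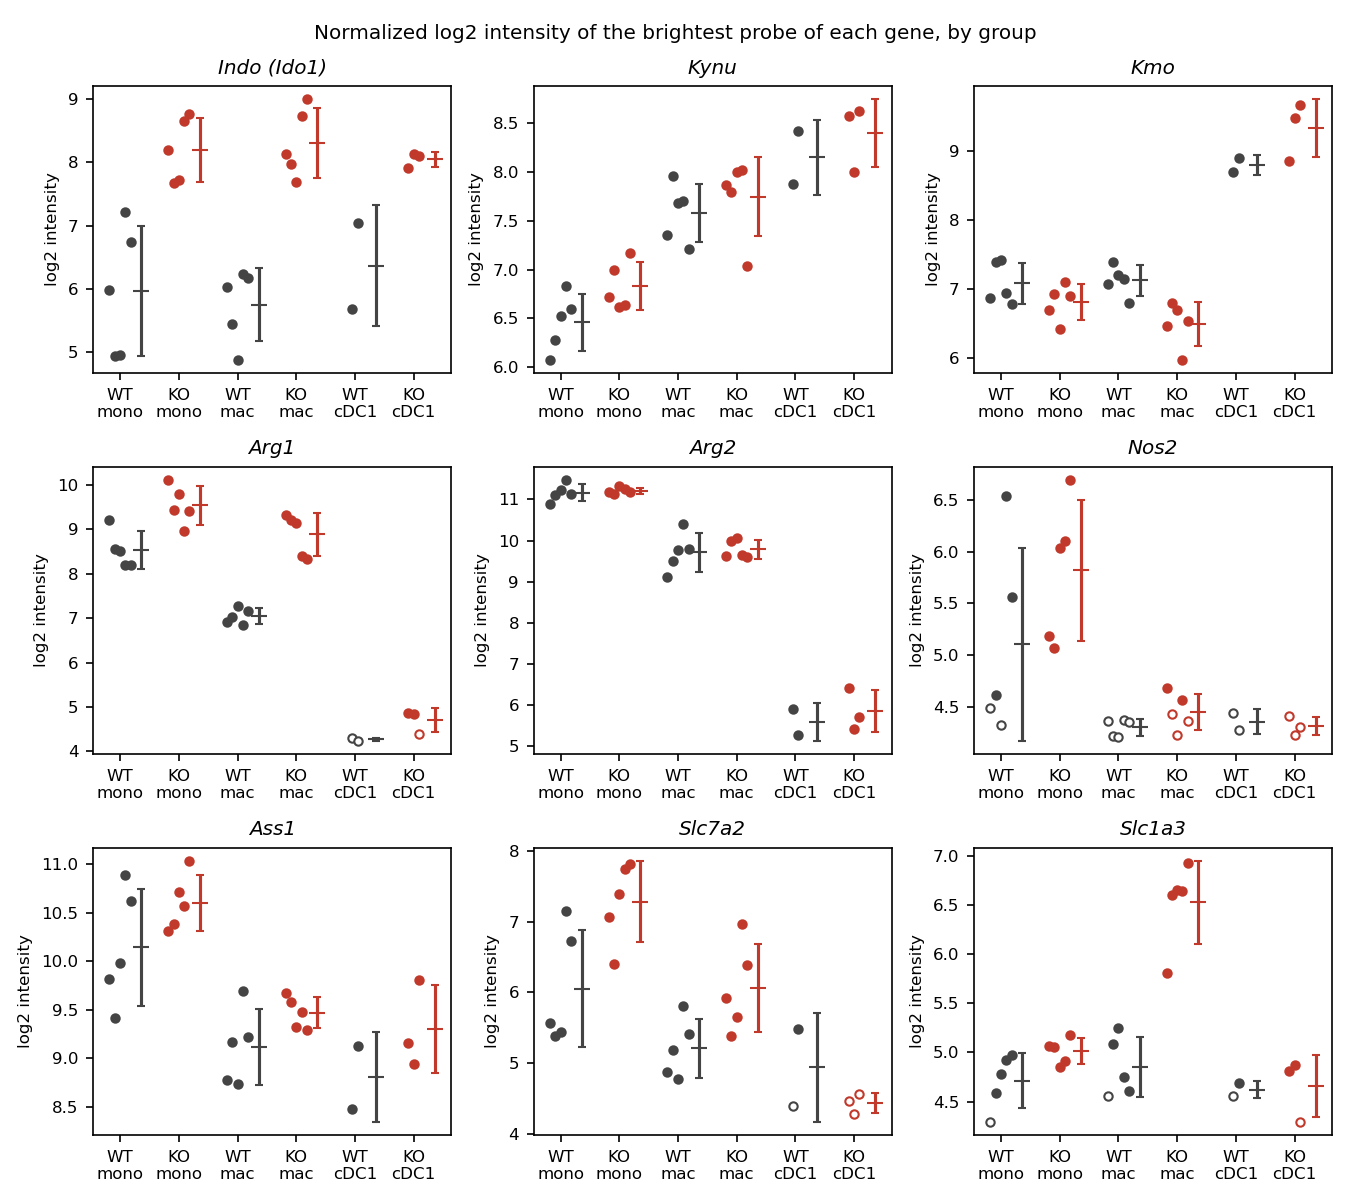
Normalised log2 intensity (y axis of each panel, a separate scale for each gene) of the brightest probe of the 9 genes in WT (grey) and Mbd2-/- (KO, red) monocytes (mono), macrophages (mac) and cDC1s. Each point is 1 array, filled where the detection p was under 0.05 and open otherwise, and bars show mean ± SD. The Indo arrays of the genotypes separate in monocytes and macrophages. They also separate in cDC1s, but there with 2 WT and 3 Mbd2-/- arrays, a difference that did not pass and deposited intensities that overlapped. The Slc1a3 arrays separate in macrophages, and Arg1 and Arg2 are lowest in cDC1s.

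Indo was the gene of tryptophan metabolism with the largest genotype differences. In WT monocytes the 5 arrays read 5.98, 4.95, 4.95, 7.21 and 6.75, and in Mbd2-/- monocytes 8.19, 7.68, 7.72, 8.65 and 8.76. The groups did not overlap, and the Mbd2-/- mean exceeded the WT mean by 2.23 ± 0.40 (SE, n = 5 and 5), a 4.7-fold difference. In WT macrophages the arrays read 6.03, 5.44, 4.88, 6.24 and 6.17, and in Mbd2-/- macrophages 8.13, 7.97, 7.69, 8.74 and 9.00. These groups did not overlap either, and the difference was 2.55 ± 0.40 (SE, n = 5 and 5), or 5.86-fold. Before normalisation the Indo probe read 96.8 to 219 in the WT monocyte and macrophage arrays and 230 to 668 in the Mbd2-/- ones, so the ranges were also apart in the deposited intensities. Without background correction the differences were smaller, at 1.38 in monocytes and 1.61 in macrophages. In cDC1s the 2 WT arrays read 5.69 and 7.04 and the 3 Mbd2-/- arrays 7.91, 8.13 and 8.10. Every Mbd2-/- cDC1 array was above both WT arrays, but the difference of 1.68 ± 0.57 (SE) did not pass the test over all probes (adjusted p = 0.0766). The deposited intensities overlapped in cDC1s, at 145 and 211 in WT and 246, 187 and 200 in Mbd2-/-, whose arrays were dimmer over all probes. With 1 array left out the normalised difference ran from 1.01 to 2.36, the latter without WT cDC1 array 26, which left 1 WT array.

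Across cell types in WT, Indo levels did not separate. The mean was 5.97 ± 1.03 (SD, n = 5) in monocytes, 5.75 ± 0.58 (SD, n = 5) in macrophages and 6.37 ± 0.95 (SD, n = 2) in cDC1s. No pair of cell types passed the test (adjusted p = 0.752 for macrophages against monocytes, 0.386 for cDC1s against macrophages and 0.601 for cDC1s against monocytes). The WT monocyte arrays alone ran from 4.95 to 7.21.

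Kynu differed between cell types. WT monocytes read 6.07, 6.28, 6.53, 6.83 and 6.59, WT macrophages 7.36, 7.96, 7.68, 7.70 and 7.22, and WT cDC1s 7.88 and 8.42. All WT macrophage arrays were above all WT monocyte arrays, and Kynu rose by 1.12 ± 0.20 (SE) on the log2 scale from monocytes to macrophages (adjusted p = 0.000172). The call was lost without background correction (0.72) and with an offset of 50 (0.89), where the difference was under the fold limit. The further step of 0.57 ± 0.26 (SE) from macrophages to cDC1s did not pass (adjusted p = 0.0898), while cDC1s exceeded monocytes by 1.69 ± 0.26 (SE, adjusted p = 1.51e-05). Mbd2-/- exceeded WT means by 0.37 ± 0.20 (SE) in monocytes and 0.16 ± 0.20 (SE) in macrophages with overlapping arrays, and by 0.25 ± 0.28 (SE) in cDC1s (adjusted p = 0.635).

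Kmo was highest in cDC1s. The 2 WT cDC1 arrays read 8.69 and 8.90, against 6.78 to 7.41 in WT monocytes and 6.79 to 7.39 in WT macrophages. Kmo was higher in cDC1s than in macrophages by 1.67 ± 0.23 (SE, adjusted p = 5.02e-06) and than in monocytes by 1.72 ± 0.24 (SE, adjusted p = 3.27e-06), with no overlap. Between monocytes and macrophages Kmo did not pass the test (difference 0.04 ± 0.18, SE, adjusted p = 0.899). The Mbd2-/- mean of Kmo was below the WT mean in both monocytes (by -0.27 ± 0.18, SE) and macrophages (by -0.63 ± 0.18, SE). The macrophage arrays read 6.46, 6.79, 6.69, 5.97 and 6.53 in Mbd2-/- and 7.07, 7.39, 7.20, 7.15 and 6.79 in WT, and touched only at the highest Mbd2-/- and the lowest WT array. In cDC1s the sign was the opposite, except under median scaling (-0.08), with 8.85, 9.47 and 9.65 in Mbd2-/- and a difference of 0.53 ± 0.26 (SE), which did not pass (adjusted p = 0.208). The deposited intensities were lower in Mbd2-/- cDC1s, at 406, 364 and 459 against 548 and 540 in WT, on arrays dimmer over all probes.

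Arg1, by its brighter probe, was higher in Mbd2-/- monocytes and macrophages. Mbd2-/- macrophages read 9.34, 9.22, 9.15, 8.41 and 8.32, and WT macrophages 6.91, 7.04, 7.27, 6.86 and 7.17. The macrophage groups did not overlap, with a difference of 1.84 ± 0.22 (SE, n = 5 and 5), or 3.58-fold, and the dimmer Arg1 probe gave 2.13 ± 0.26 (SE). In monocytes Mbd2-/- arrays read 10.11, 9.43, 9.80, 8.96 and 9.43 and WT arrays 9.22, 8.57, 8.51, 8.20 and 8.20. Here the ranges overlapped through the highest WT array, and the difference was 1.01 ± 0.23 (SE), with 1.28 ± 0.26 (SE) by the dimmer probe. The call of Arg1 in monocytes was lost without background correction (brighter probe 0.88), under median scaling (0.72) and at an adjusted p under 0.01.

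Arg1 also separated the cell types in WT. Macrophages were lower than monocytes by -1.49 ± 0.22 (SE, adjusted p = 3.06e-05), without overlap. The same WT macrophage arrays enter the genotype difference known when Arg1 was chosen, so this comparison is not independent of that choice. Arg1 was detected on 0 of 2 WT cDC1 arrays, which gave only a bound. By the brighter probe it was at least 15.5-fold higher in WT monocytes (adjusted p = 6.68e-11) and at least 5.53-fold higher in WT macrophages (adjusted p = 8.96e-08) than in WT cDC1s. The bounds by the dimmer probe were 4.67-fold and 1.68-fold. Under other settings the fitted cDC1 difference of the brighter probe ran from -4.48 to -2.37 against monocytes and from -2.85 to -1.25 against macrophages. The bound set the mean of the brighter group against the lowest normalised level among detected probes on each cDC1 array, or the level of the probe itself where that was higher. In Mbd2-/- cDC1s the probe was detected on 2 of 3 arrays, at 4.87, 4.84 and 4.38, close to background (difference from WT 0.43 ± 0.32, SE, adjusted p = 0.445).

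Arg2 differed widely between WT cell types and little between genotypes. WT monocytes read 10.88 to 11.47, WT macrophages 9.11 to 10.39, and the 2 WT cDC1 arrays 5.92 and 5.27. None of these ranges overlapped. Arg2 fell by 1.45 ± 0.20 (SE) from monocytes to macrophages (adjusted p = 8.8e-06) and was lower in cDC1s than in macrophages by -4.12 ± 0.26 (SE, adjusted p = 1.35e-11), a 17.4-fold step. The genotype difference was 0.05 ± 0.20 (SE) in monocytes, 0.07 ± 0.20 (SE) in macrophages and 0.26 ± 0.29 (SE) in cDC1s (adjusted p = 0.618), each with overlapping arrays, and under median scaling all 3 were below 0 (-0.25, -0.03 and -0.18). Arg1 and Arg2, which catalyse the same reaction, had the same order of levels across WT cell types.

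Nos2 was near background outside monocytes. Its brighter probe was detected on 3 of 5 WT and 5 of 5 Mbd2-/- monocyte arrays, on 0 of 5 WT and 2 of 5 Mbd2-/- macrophage arrays and on no cDC1 array, and its other probe was detected on 0 of 25 arrays. Mbd2-/- monocytes read 5.19, 5.07, 6.04, 6.10 and 6.69, and WT monocytes 4.49, 4.61, 4.33, 6.54 and 5.56. The ranges overlapped widely, since WT arrays 4 and 5 stood above the other 3 WT arrays, and the difference was 0.71 ± 0.32 (SE). In WT, Nos2 was at least 1.44-fold higher in monocytes than in cDC1s, which did not pass (adjusted p = 0.178), and it had too few detected arrays to be tested between macrophages and monocytes.

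Ass1 was detected on all 25 arrays and was highest in monocytes. WT monocytes read 9.82, 9.41, 9.98, 10.89 and 10.62, WT macrophages 8.73 to 9.69, and WT cDC1s 8.48 and 9.13. Ass1 fell by 1.03 ± 0.24 (SE) from monocytes to macrophages (adjusted p = 0.0032), with overlapping ranges, and was lower in cDC1s than in monocytes by -1.34 ± 0.32 (SE, adjusted p = 0.00194), without overlap. The difference of cDC1s from macrophages did not pass the test (-0.32 ± 0.32, SE, adjusted p = 0.471). The step from monocytes to macrophages stood just past the fold limit, and it dropped under it to -0.84 without WT monocyte array 4, to -0.91 without WT monocyte array 5, to -0.94 without WT macrophage array 11 and to -0.93 without WT macrophage array 13. That from monocytes to cDC1s lost its call without WT cDC1 array 23 (-1.02), which left 1 WT cDC1 array. Mbd2-/- means exceeded WT by 0.46 ± 0.24 (SE) in monocytes, 0.35 ± 0.24 (SE) in macrophages and 0.50 ± 0.35 (SE) in cDC1s (adjusted p = 0.404), with overlap in each.

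Slc7a2 had 5 probes, of which the brightest was detected on 21 of 25 arrays and the others on 0 to 9. Mbd2-/- monocytes read 7.07, 6.40, 7.39, 7.74 and 7.81 by the brightest probe, and WT monocytes 5.57, 5.37, 5.44, 7.14 and 6.72. WT arrays 4 and 5 again lay within the Mbd2-/- range, and the difference was 1.23 ± 0.36 (SE). By the next brightest probe, which was detected on 1 of 5 WT and 5 of 5 Mbd2-/- monocyte arrays, the groups did not overlap, and the difference was 0.72 ± 0.14 (SE). Macrophages read 5.39 to 6.96 in Mbd2-/- and 4.78 to 5.80 in WT, a difference of 0.85 ± 0.35 (SE). In WT, Slc7a2 levels fell in the order monocytes, macrophages, cDC1s, but no pair passed the test (adjusted p = 0.0897, 0.687 and 0.068 for macrophages against monocytes, cDC1s against macrophages and cDC1s against monocytes). The last pair passed without WT monocyte array 2 (-1.27, adjusted p = 0.0400) and without WT monocyte array 3 (-1.26, adjusted p = 0.0446). Without WT cDC1 array 26, which left 1 WT cDC1 array, its difference was -1.66. In Mbd2-/- cDC1s the brightest probe was detected on 0 of 3 arrays.

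Slc1a3 was higher in Mbd2-/- macrophages. Mbd2-/- macrophages read 5.81, 6.60, 6.65, 6.64 and 6.93, and WT macrophages 4.56, 5.09, 5.25, 4.75 and 4.61. The groups did not overlap, and the difference was 1.68 ± 0.18 (SE, n = 5 and 5), or 3.2-fold. The deposited intensities were 138 to 220 in Mbd2-/- macrophages and 89.1 to 111 in WT macrophages, so the WT level was close to background, and 1 of the 5 WT arrays was not detected. Monocytes read 4.85 to 5.18 in Mbd2-/- and 4.30 to 4.98 in WT, which overlapped, with a difference of 0.30 ± 0.18 (SE). In cDC1s the levels were 4.81, 4.87 and 4.29 in Mbd2-/- and 4.56 and 4.69 in WT, with a difference of 0.03 ± 0.26 (SE, adjusted p = 0.957). The difference in macrophages was 0.71 without background correction, under the fold limit of a call. Across WT cell types Slc1a3 stayed near background, with means of 4.71 in monocytes, 4.85 in macrophages and 4.62 in cDC1s. No pair passed the test (adjusted p = 0.648, 0.49 and 0.809 for the 3 pairs).

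**Figure D2:**
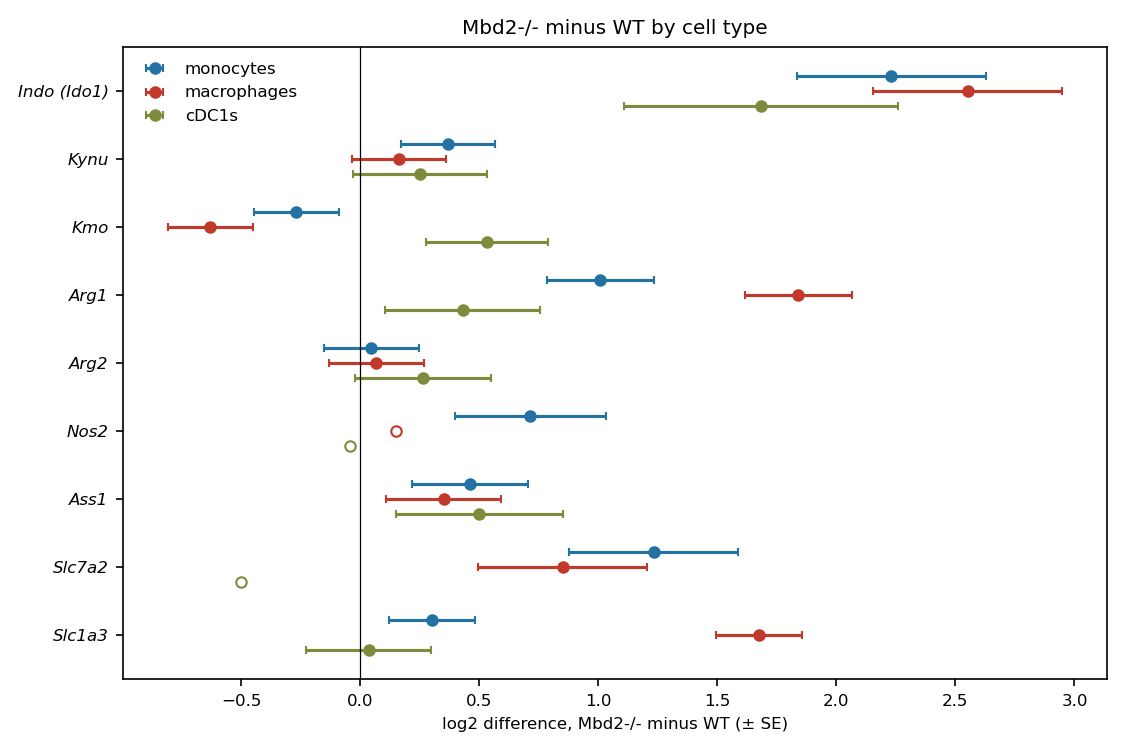
Difference in normalised log2 intensity between Mbd2-/- and WT (x axis) for each gene (y axis) in monocytes (blue), macrophages (red) and cDC1s (green); points are differences of group means, bars are SE from the fit over 25 arrays, and open points are probes with too few detected arrays to be fitted. Indo lies at 2.23, 2.55 and 1.68, Arg1 and Slc1a3 reach 1.84 and 1.68 in macrophages, and Arg2 stays near 0.

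Counted together, 2 of 9 members tested were called in monocytes (Indo and Arg1) and 3 of 8 in macrophages (Indo, Arg1 and Slc1a3), all higher in Mbd2-/-. Without WT monocyte array 4 the count in monocytes was 4, with Nos2 and Slc7a2 added. Of all genes tested, 0.492% were called in monocytes and 1.85% in macrophages. Arrays of the genotypes did not overlap for 1 of 9 members in monocytes and 3 of 8 in macrophages, where 5.1% and 5.16% of all genes did not overlap. Since these contrasts were known when the genes were chosen, nothing is read from those counts. In cDC1s 0 of 7 members tested were called by limma, 1 (Indo) had an unadjusted p under 0.05 beside 3748 of 13051 genes, and 2.41% of all genes were called. All 7 tested cDC1 differences were above 0, with a median of 0.43 against 0.05 for all genes tested. That median was the value of Arg1, whose probe was detected on 0 of 2 WT and 2 of 3 Mbd2-/- arrays. Slc7a2 (-0.50) and Nos2 (-0.04), with too few detected arrays to be tested, were below 0. Under median scaling, which moved the median of all genes in this contrast to -0.36, the differences of Kynu, Kmo, Arg2, Ass1 and Slc1a3 were also below 0.

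The columns of the deposited table stood in runs of 6, and a MouseWG-6 BeadChip holds 6 arrays, but the labels do not say which arrays shared a chip. Each run of monocyte and macrophage arrays held both genotypes, so the difference could be taken within a run. For Indo it was 3.41 and 0.88 in the 2 runs of monocytes and 3.42 and 1.72 in those of macrophages, always higher in Mbd2-/-. Slc1a3 in macrophages was alike in both runs (1.82 and 1.67), and Arg1 kept its sign (1.29 and 2.22 in macrophages, 0.42 and 1.59 in monocytes). Slc7a2 did not: the difference in monocytes was 2.31 in the run with WT arrays 1 to 3 and 0.02 in the run with WT arrays 4 and 5, and in macrophages 1.73 and 0.05. Nos2 and Ass1 in monocytes changed sign, from 1.92 to -0.62 and from 1.07 to -0.29. With the run as a block in the fit, the differences were 2.11 ± 0.41 (SE) for Indo, 1.14 ± 0.37 (SE) for Slc7a2 and 0.67 ± 0.34 (SE) for Nos2 in monocytes, and 2.56 ± 0.41 (SE), 1.77 ± 0.22 (SE) and 1.73 ± 0.17 (SE) for Indo, Arg1 and Slc1a3 in macrophages. For the cDC1 genotype difference, and for macrophages against monocytes and cDC1s against macrophages in WT, run and group cannot be told apart.

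Whether the genotype differences were unequal between cell types was taken from interaction terms. Between macrophages and monocytes no member had an adjusted p under 0.05 by limma, 3 of 9 had an unadjusted p under 0.05, and 0.0362% of all genes passed. Slc1a3 came nearest, with a genotype difference larger in macrophages than in monocytes by 1.38 ± 0.26 (SE, adjusted p = 0.0602). With the run as a block in the limma fit it was larger by 1.47 ± 0.24 (SE), with an adjusted p of 0.0318, which passed. That term contains the macrophage difference known when the gene was chosen. Between cDC1s and macrophages 3 of 9 members passed, beside 8.32% of all genes. The genotype difference in cDC1s was smaller than in macrophages by -1.64 ± 0.32 (SE) for Slc1a3 and by -1.41 ± 0.39 (SE) for Arg1. Both probes were near background in cDC1s. Slc1a3 was detected on 1 of 2 WT and 2 of 3 Mbd2-/- arrays, and Arg1 on 0 of 2 and 2 of 3. Their terms therefore cannot tell a smaller genotype difference from a signal too low to show one. For Kmo it was greater by 1.16 ± 0.31 (SE), the normalised Kmo differences having opposite signs. Between cDC1s and monocytes no member passed, 3 of 9 had an unadjusted p under 0.05, and 1.14% of all genes passed. For Indo none of the 3 differences between cell types passed (adjusted p from 0.492 to 0.948). The genes were chosen partly for large differences in macrophages, so the terms of Arg1 and Slc1a3 are given as a description. The WT and Mbd2-/- cDC1 arrays shared no column run, so that run and genotype cannot be told apart in the cDC1 part of each term. Slc1a3 alone passed without WT cDC1 array 23, with cyclic loess, with array weights and at an adjusted p under 0.01. Kmo also missed the threshold without Mbd2-/- cDC1 array 28 or 30, under median scaling and without the filter on dim probes.

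In WT, 4 of 8 members tested were called between macrophages and monocytes, 1 higher (Kynu) and 3 lower (Arg1, Arg2 and Ass1) in macrophages, where 5.23% of all genes were called. Between cDC1s and macrophages 3 of 8 were called, Kmo higher and Arg1 and Arg2 lower in cDC1s, beside 20.2% of all genes. Between cDC1s and monocytes 5 of 9 were called, Kmo and Kynu higher and Arg1, Arg2 and Ass1 lower in cDC1s, beside 18.9% of all genes. Kmo and Kynu were called only as higher in cDC1s or macrophages, and Arg1, Arg2 and Ass1 only as lower than in the cell type they were compared with. The comparisons share WT arrays and are not independent of each other or of the genotype differences known when the genes were chosen.

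**Figure D3:**
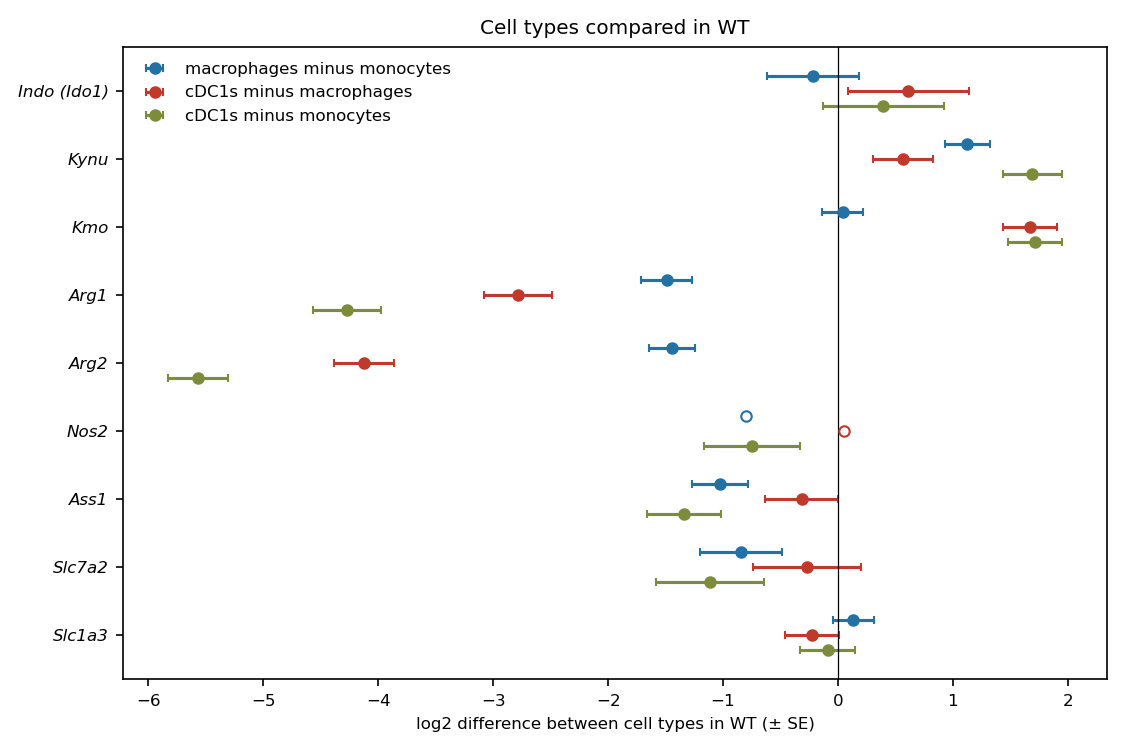
Difference in normalised log2 intensity between WT cell types (x axis) for each gene (y axis): macrophages minus monocytes (blue), cDC1s minus macrophages (red) and cDC1s minus monocytes (green). Points are differences of group means with SE from the fit over 25 arrays, open where too few arrays were detected to be fitted; Arg2 reaches -5.57 and Arg1 -4.27 between cDC1s and monocytes, a fitted value that for Arg1 is set against undetected cDC1 arrays, and Kmo lies at 1.67 and 1.72.

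Other genes of the 3 pathways, 90 in all without the members, of which 82 symbols were found on the array, were compared in the same fits. In monocytes none of 55 tested (22 of arginine, nitric oxide and polyamines, 12 of tryptophan and kynurenine and 21 of glutamate and glutamine) was called by limma, 10 had an unadjusted p under 0.05 beside 1964 of all 11992 genes, and the median difference was -0.08 against -0.03 for all genes. Without the fold limit, Wars, the tryptophanyl-tRNA synthetase, rose in Mbd2-/- monocytes by 0.78 ± 0.20 (SE, adjusted p = 0.0403) by 1 of its probes, while its brightest did not pass (0.63, adjusted p = 0.0808). Maob, a monoamine oxidase, was detected on 5 of 5 WT and 0 of 5 Mbd2-/- monocyte arrays and was at least 1.17-fold higher in WT (adjusted p = 0.0308). In macrophages none of 56 (21, 13 and 22 of the 3 lists) was called by limma, 13 had an unadjusted p under 0.05 beside 3469 of all 12515 genes, and the median was -0.06 against -0.08 for all genes. Haao, which acts on the product of Kynu in the kynurenine pathway, fell by 0.997 ± 0.19 (SE, adjusted p = 0.00513), just short of the fold limit, and it was called when 1 of arrays 13, 14, 15, 16, 17 or 18 was left out, and with the column run as a block. Gamt, which makes creatine, fell by 0.78 ± 0.14 (SE, adjusted p = 0.00307). The genes that rose in Mbd2-/- macrophages without the fold limit were Gpt2, a glutamate-pyruvate transaminase (0.90 ± 0.24, SE, adjusted p = 0.0296), Slc7a7, a cationic amino acid transporter subunit (0.76 ± 0.19, SE, adjusted p = 0.0263), and Qprt, which feeds quinolinate into NAD synthesis (0.59 ± 0.15, SE, adjusted p = 0.0261). The probes of Pts, an enzyme of tetrahydrobiopterin synthesis, disagreed, with 0.89 ± 0.21 (SE, adjusted p = 0.0182) by the dimmer and -0.12 (adjusted p = 0.426) by the brighter.

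In cDC1s 1 of 59 pathway genes tested (24, 14 and 21 of the 3 lists) was called, the arginine methyltransferase gene Prmt1, which was higher in Mbd2-/- by 1.20 ± 0.28 (SE, adjusted p = 0.0155) and was detected on 3 of 3 Mbd2-/- and 1 of 2 WT arrays. The call was lost without WT array 23 or Mbd2-/- array 30 and under 7 of 10 other settings. At the adjusted p alone, Prmt1, Gamt and Gss were higher, while Slc38a2, Oat and Gss were among those lower, Gss passing in both directions by different probes while its brightest did not pass (adjusted p = 0.561). Slc38a2, a glutamine transporter, was lower by -0.87 ± 0.25 (SE, adjusted p = 0.0365) by 1 of its probes but not by its brightest (-0.11, adjusted p = 0.808), and Oat, which links ornithine to glutamate, by -0.53 ± 0.14 (SE, adjusted p = 0.0239).

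**Figure D4:**
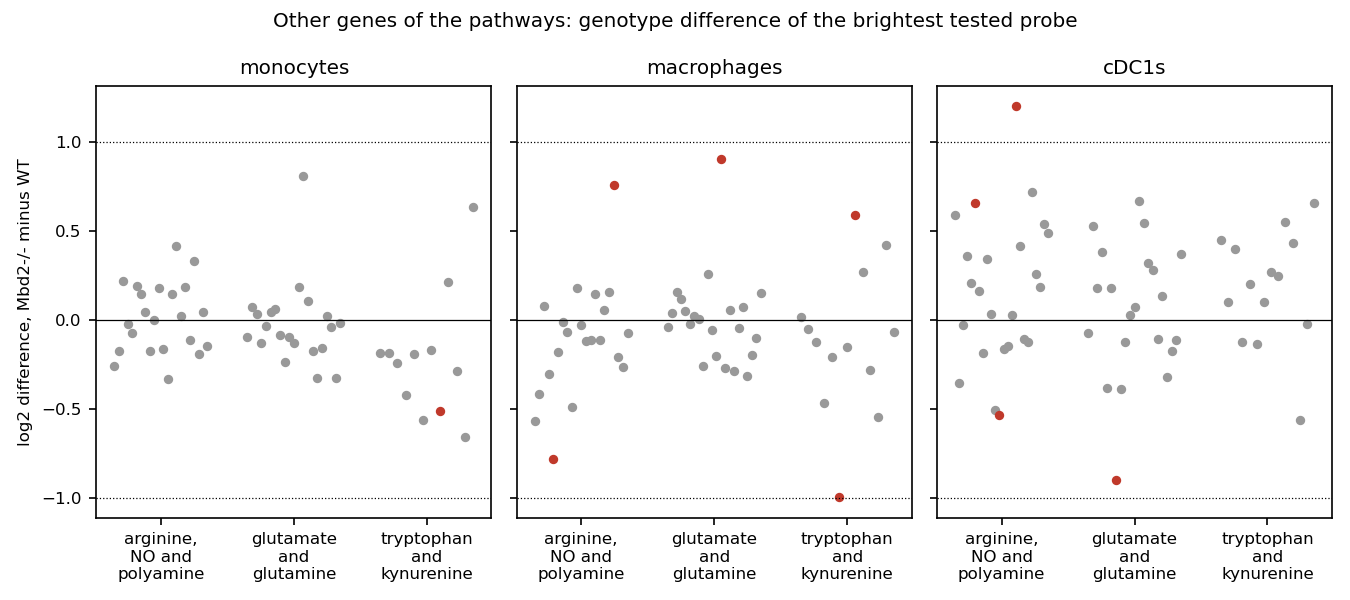
Difference in normalised log2 intensity between Mbd2-/- and WT (y axis) of the brightest tested probe of every other gene on the 3 pathway lists (x axis) in monocytes, macrophages and cDC1s. Each point is 1 gene, red where the adjusted p of that probe was under 0.05, and dotted lines mark the fold limit of 1; Prmt1 in cDC1s, at 1.20, is the only gene past both limits.

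Between WT cell types these genes were called at shares not far from those of all genes (5.23%, 20.2% and 18.9% for the 3 comparisons in turn). In macrophages against monocytes 3 of 56 were higher and 1 lower: Paox, a polyamine oxidase, by 1.24 ± 0.12 (SE, adjusted p = 7.87e-08), Gpt2 by 1.06 ± 0.24 (SE, adjusted p = 0.00189) and Ahrr, the repressor of the aryl hydrocarbon receptor, by 1.39 ± 0.19 (SE, adjusted p = 6.45e-06), against Smox, the spermine oxidase, by -1.10 ± 0.12 (SE, adjusted p = 2.22e-07). In cDC1s against macrophages 7 of 61 were higher and 8 lower, and in cDC1s against monocytes 7 of 62 higher and 6 lower. Among the largest, Slc7a11, the cystine-glutamate exchanger, was lower in cDC1s than in macrophages by -3.89 ± 0.34 (SE) and than in monocytes by -4.82 ± 0.34 (SE), and Smox by -3.12 ± 0.15 (SE) and -4.22 ± 0.15 (SE). Paox was lower in cDC1s by -2.48 ± 0.16 (SE) and -1.24 ± 0.16 (SE), and Slc16a10, an aromatic amino acid transporter, by -1.85 ± 0.31 (SE) and -2.63 ± 0.31 (SE). Ahrr was lower in cDC1s than in macrophages by -1.70 ± 0.25 (SE). Haao, like Kmo, was higher in cDC1s, by 1.63 ± 0.25 (SE) against macrophages and 1.39 ± 0.25 (SE) against monocytes, and Asl, which follows Ass1 in arginine resynthesis, was higher than in monocytes by 1.61 ± 0.37 (SE). The adjusted p of these cDC1 differences ran from 1e-15 to 0.00133.

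The genes whose levels followed each member most closely were taken by Pearson's r over the 25 colon arrays, among 19761 probes detected on at least 5 arrays, as a description in which all points share arrays, cell types and normalisation. Indo was closest to Ubd (r = 0.913), Serpina3g (0.891) and Reg3b (0.86), the last an antimicrobial lectin of the gut epithelium. Nos2 was closest to Gbp2 (0.937), Glrx1 (0.916) and Prm1 (0.908), Ass1 to Prm1 (0.949), Samhd1 (0.942) and Ciapin1 (0.937), and Slc7a2 to Irgm1 (0.936), Il27 (0.934) and AI451557 (0.933). Arg2 was closest to Smox (0.988), Clec4e (0.988) and Mocs1 (0.986), a gradient between cell types, and Arg1 to LOC226017 (0.958), EG433229 (0.954) and Prdx5 (0.933). Kmo was closest to Olfm1 (0.967), Sept6 (0.957) and Gpr124 (0.957), Kynu to LOC100045780 (0.929), LOC232887 (0.925) and Cul7 (0.920), and Slc1a3 to Angptl7 (0.913), Myh10 (0.906) and an unnamed transcript (0.877).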

How the data were processed

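Total RNA of sorted cells was labelled and hybridised to Illumina MouseWG-6 BeadChips. The intensities, detection p-values and bead numbers were deposited by the authors as exported by GenomeStudio, with no normalisation and no background subtraction per the file headers. The submitters' processing notes name lumi and limma, with versions not given in the sources used here. A further 3 signal columns of the table belonged to no sample and were not used.

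Intensities of the 25 colon arrays were background corrected with normexp on 936 negative control probes (offset 16), quantile normalised and put on the log2 scale with limma 3.58.1 in R 4.3.3. One linear model over 6 groups with moderated statistics (lmFit, eBayes; two-sided) gave each contrast, adjusted by Benjamini-Hochberg over all tested probes. A probe was tested if its detection p was under 0.05 on as many arrays as the smaller group held, and a call needed any probe of the gene with a log2 difference of 1 or more in either direction and an adjusted p below 0.05. SE are from this model and n are arrays. Array values rest on 20 to 67 beads, and precision is limited by how many arrays each group has.

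The genes and gene lists were chosen with earlier results of these data known. Named genes were the 9 members by every probe, the called genes of 3 pathway lists (the 6 largest where more were called) and the 3 genes closest to each member. Of the pathway lists, genes passing without the fold limit were added after their values were seen. Alternatives were other background, scaling, filter, weight and threshold settings, arrays left out in turn, column position as a block and separate fits per cell type. The labels and the study's methods differ in the mice pooled per array and in the RNA kit, and the labels were followed. The fit was also tried on simulated data with differences added in macrophages only. That simulation had no column runs and no normalisation step, and no result here rests on it. Gene symbols are those of the array; 27655 of 36692 probes with an accession matched RefSeq. Not every pathway gene that passed is reported here.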

Additional observations from a re-analysis of the deposited data

Results flagged for a closer look

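In Mbd2-/- macrophages the Kynu level of array 20, 7.04, lay apart from the other 4, the next of which was 7.80, a gap of 0.774 of the group's range where 0.71 is the 95% limit for 5 samples. Of 36 groups of 5 arrays examined over the 9 genes this was the 1 that exceeded the limit, and chance exceeds it in about 1 of 20 groups.

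For 3 genes the interaction term between cDC1s and macrophages had an adjusted p under 0.05 by limma. The genotype difference in cDC1s minus that in macrophages was -1.41 for Arg1, -1.64 for Slc1a3 and 1.16 for Kmo on the log2 scale. In cDC1s the Arg1 and Slc1a3 probes were near background. Arg1 and Slc1a3 were chosen with their macrophage differences known, which favours a smaller value in cDC1s, genotype and column run cannot be told apart in the cDC1 arrays, and the Arg1 and Kmo terms no longer passed without WT cDC1 array 23.

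In splenic CD4 T cells taken 6 weeks after transfer in another model of colitis, with 1 array per genotype and no test, Ass1 had a deposited intensity of 1020 in WT and 762 in Mbd2-/- cells, both with a detection p of 0. Slc1a3 was just above background there, at 98.3 and 87.5.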

How the results depend on the processing

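The groups share no array numbers and the labels pair no samples, so the pairing of monocyte and macrophage arrays with numbers 10 apart was tried as a random block only. Of 303 member differences recomputed under other settings, 290 kept their sign and none that was called turned. The 3 member calls in macrophages fell to 2 without background correction and otherwise stood at 3 or 4, and the 0 in cDC1s held under every other setting (0 to 1 with 1 array left out). In monocytes the 2 calls became 1 without background correction, under median scaling or at an adjusted p under 0.01, and 2 to 4 with 1 array left out, the 4 without WT array 4. In WT, 4 calls in macrophages against monocytes became 2 without background correction or with an offset of 50, and 3 to 4 with 1 array left out; cDC1s against macrophages stayed at 3, and cDC1s against monocytes at 5, or 4 to 6 with 1 array left out. With that block, macrophages against monocytes kept 4 calls. Unequal genotype effects went from 3 genes to 1 with cyclic loess, array weights or an adjusted p under 0.01, and to 1 to 3 with 1 array left out, the 1 without WT cDC1 array 23. Pathway calls in cDC1s went from 1 to 0 without background correction, with an offset of 50, cyclic loess, array weights, an adjusted p under 0.01 or separate fits, to 2 with median scaling and 6 without a fold limit, and to 0 to 6 with 1 array left out (6 without WT array 26). In macrophages they went from 0 to 6 without a fold limit, 1 with column runs as a block and 0 to 2 with 1 array left out, and in monocytes from 0 to 2 without a fold limit. Under median scaling the median of all genes moved to -0.28 in monocytes and -0.36 in cDC1s, and calls of all genes by the brightest probe in cDC1s from 110 higher and 129 lower to 6 higher and 388 lower. The column run as a block could not be fitted for the cDC1 genotype difference, macrophages against monocytes or cDC1s against macrophages. Under that block the Slc1a3 interaction term between macrophages and monocytes passed by limma (adjusted p = 0.0318). The cause of these changes was not tested. Signals near background, as for Nos2 and for Arg1 in cDC1s, limit what can be compared.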
